A study of Mus musculus with 2 samples.

Results

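The cells described here are submandibular gland cells chosen for their RNA of Mucl2 and 3 secretoglobins. A droplet barcode was taken when Mucl2, Scgb1b27, Scgb2b26 and Scgb2b27 together made up at least 5% of its UMIs, a UMI being a tag that marks 1 captured molecule. Only barcodes in which 200 or more genes were seen, and whose mitochondrial UMIs stayed below 20%, were considered. The rule found 38 of 2423 kept barcodes in the p63 KO library and 168 of 1663 in the p63 WT library, 206 of 4086 in all. They are called Mucl2-rich cells below and members in the plots. The name describes the group: Mucl2 was as low as 0.117% of a KO cell's and 3.56% of a WT cell's UMIs.

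The libraries came from mouse gland of the named p63 genotype, KO or WT, at 12 weeks of age. The protocol text in the labels describes a salivary gland dissociated whole, whereas the source name given there speaks of epithelial progenitor cells, and no sort is recorded. Molecules were counted at the 3′ ends of transcripts with 10x Genomics version 2 chemistry. The sources used here do not describe the p63 allele, the deleted exons, the time and cells of deletion, or any pooling of glands. With 1 library per genotype there was no replicate and no test between genotypes: ratios and shares carry 95% intervals that cover counting error only.

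Salivary acinar cells make the protein-rich part of saliva, fold it in the endoplasmic reticulum and store it in granules that are released on nerve signals. Secretoglobins are small secreted proteins that pair through disulphide bonds. In the mouse, a subunit of the Scgb1b group and a subunit of the Scgb2b group form a salivary androgen-binding protein, while Mucl2 encodes a mucin-like salivary protein. Smgc, the submandibular gland protein C of the Muc19 locus, marks another kind of secretory cell in this gland and was used as the nearest comparison.

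The Mucl2-rich cells made up 1.57% of kept KO barcodes (exact binomial interval 1.11 to 2.15%) and 10.1% of kept WT barcodes (8.70 to 11.7%). These shares depend on depth and recovery. The shallowest kept barcode held 1077 UMIs in the KO library and 2175 in the WT library, and the sources used here do not give the rule that chose the deposited barcodes. Among barcodes with at least 2175 UMIs, a limit chosen after seeing the data, the KO share was 32 of 1145, or 2.79% (1.92 to 3.92%), and the WT share stayed at 168 of 1663. Without any filter on barcodes, 42 KO and 187 WT barcodes met the rule, and the KO share was 0.889%. The libraries had 11 barcode sequences in common, of which 0 belonged to KO and 4 to WT Mucl2-rich cells.

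Mucl2-rich cells were deeper than other barcodes in both libraries. They had a median of 10261.5 UMIs in the KO library (1114 to 68173) and 8359 in the WT library (2175 to 46594), against 2065 and 3292 in the other kept barcodes. Their median number of genes was 1164 in KO and 1060.5 in WT cells, and their median mitochondrial share was 3.12% and 3.30%. The deepest cell held 10.8% of the group's UMIs in the KO library and 2.27% in the WT library. No doublets were removed: the caller Scrublet marked 4 KO and 1 WT barcodes, 0 of them Mucl2-rich, which is too few for it to have worked.

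The threshold fell in a thinly filled part of the range. The 3 KO cells just inside it had rule shares of 6.01, 6.19 and 6.75%, and the 3 WT cells 6.39, 6.80 and 11.7%. Just outside it were KO barcodes at 4.93, 4.74 and 4.48% and WT barcodes at 4.92, 4.05 and 3.60%. Between 3 and 5% lay 18 KO and 6 WT barcodes. Inside the threshold, the rule genes took a median of 48.7% of a cell's UMIs in the KO library (6.01 to 72.9%) and 64.6% in the WT library (6.39 to 84.1%), which describes the choice of cells and is no finding. Barcodes with at least 10 UMIs of immune markers, which should not make these transcripts, held a median of 0.304% rule-gene UMIs in the KO library (170 barcodes) and 0.971% in the WT library (112 barcodes), so UMIs of these genes were also found with other cells in both libraries.

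Low rule shares went with low depth. Rule shares under 40% were found in 13 of 38 KO cells (34.2%) and 20 of 168 WT cells (11.9%). Those 13 KO cells had a median of 2574 UMIs, against 19202 in the other 25, and the 20 WT cells a median of 5059 UMIs, against 9863.5 in the other 148. Under 20% lay 11 KO and 5 WT cells.

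Smgc and the rule genes mostly marked separate barcodes in the WT library. Smgc reached 5% of UMIs in 0 of 38 KO Mucl2-rich cells, where an exact binomial interval allows up to 9.25%, and in 7 of 168 WT Mucl2-rich cells (4.17%, 1.69 to 8.40%). Barcodes at or over that Smgc level outside the group, called Smgc-rich cells, numbered 26 in the KO library and 287 in the WT library. In them the rule genes had a median of 0.511% and 0.816% of UMIs, near the level of immune barcodes. Of all kept barcodes, 1.07% in the KO library and 17.7% in the WT library had Smgc at 5% or more. The 0 of 38 KO cells are thus near the share over all KO barcodes, and this count cannot show separation in that library. The median Smgc share in Mucl2-rich cells was 0% in the KO library and 0.0327% in the WT library, and in immune barcodes it was 0% and 0.0438%.

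**Figure D1:**
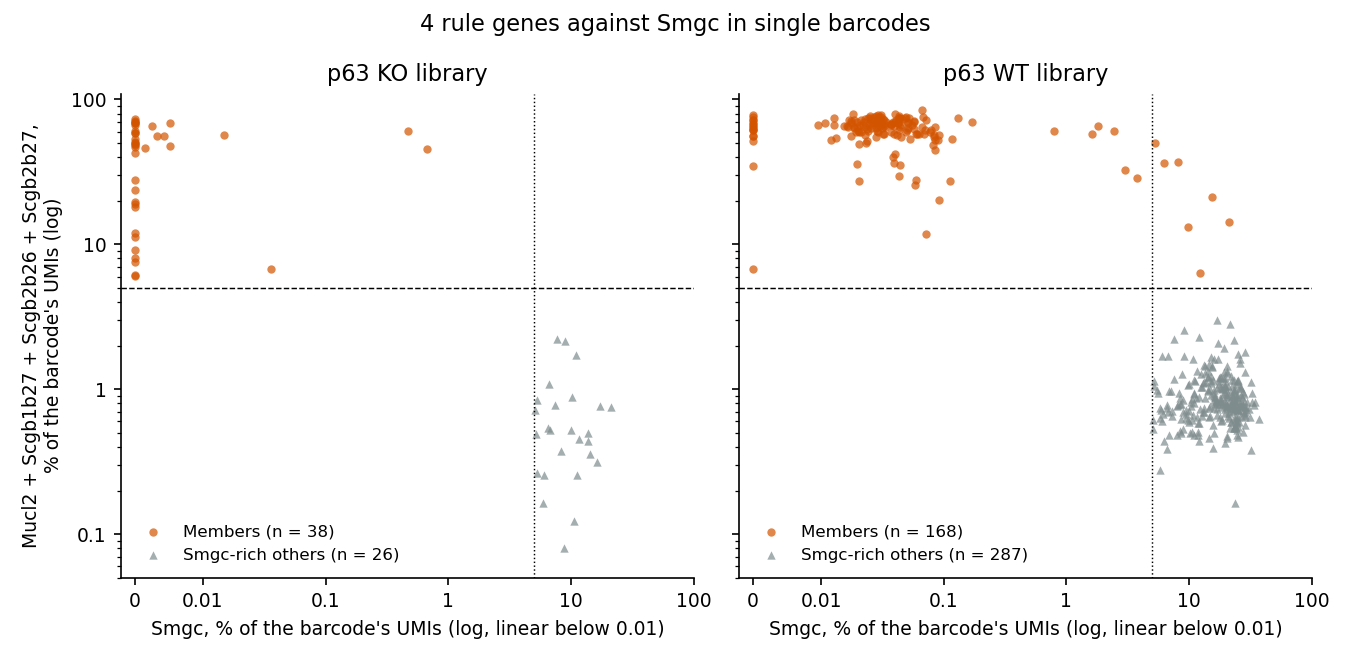
Share of each barcode's UMIs taken by Smgc (x axis, percent, log scale that is linear below 0.01) and by the 4 rule genes (y axis, percent, log scale), with KO on the left and WT on the right; circles are Mucl2-rich cells and triangles Smgc-rich cells, and dashed and dotted lines mark 5%. None of the 38 KO circles and 7 of the 168 WT circles lie right of the dotted line.

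Mucl2 itself (chromosome 15, 103895855 to 103899312, minus strand, GRCm38) was the largest single transcript. It made up 37.9% of all UMIs of KO Mucl2-rich cells (238231 UMIs) and 43.5% of those of WT cells (893164 UMIs). Per cell, the median was 34.5% in KO cells, with the middle 80% between 4.98 and 50.7%, and 42.5% in WT cells, with 20.7 to 56.8%. The ranges of the libraries overlapped for every rule gene.

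The secretoglobins came from 1 gene cluster. Of 34 secretoglobin genes in the annotation, 29 lie on chromosome 7 between 31290508 and 34100837, 15 of the Scgb1b and 14 of the Scgb2b group. Scgb1b27 (34021483 to 34022881, plus strand) and Scgb2b27 (34011921 to 34013942, minus strand) are neighbours that point away from each other, 7540 bases apart, and Scgb2b26 (33943002 to 33945040, minus strand) lies 66880 bases further along. The other 31 secretoglobins were nearly silent: 4 of them had a UMI in KO Mucl2-rich cells, 18 UMIs in all, and 6 in WT cells, 36 UMIs in all. Scgb2b24 led them in KO cells with 13 UMIs and Scgb1c1 in WT cells with 26.

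The promoter sequences of Scgb2b26 and Scgb2b27 are shown because both genes were abundant and share a stretch near the transcription start. They are given on the minus strand of GRCm38.p6, 5′ to 3′, as RefSeq annotates the gene starts, for Scgb2b26 at chr7:33944936-33945235 and for Scgb2b27 at chr7:34013893-34014192. Capitals mark the longest run that both hold, of 41 bases. It begins 72 bases before the RefSeq start of Scgb2b26 and 17 bases before that of Scgb2b27, where it runs on past the start. For Scgb2b26 the RefSeq start lies downstream of the GENCODE start at 33945040, whereas for Scgb2b27 both lie at 34013942. The 72 and 17 bases thus depend on the annotation and do not show a different layout.
Scgb2b26: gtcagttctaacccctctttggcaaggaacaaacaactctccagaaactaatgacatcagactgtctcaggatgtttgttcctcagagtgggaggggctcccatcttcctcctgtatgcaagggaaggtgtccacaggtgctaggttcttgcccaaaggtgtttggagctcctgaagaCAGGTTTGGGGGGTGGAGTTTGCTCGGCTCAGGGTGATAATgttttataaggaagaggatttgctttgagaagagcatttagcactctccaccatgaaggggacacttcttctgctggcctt
Scgb2b27: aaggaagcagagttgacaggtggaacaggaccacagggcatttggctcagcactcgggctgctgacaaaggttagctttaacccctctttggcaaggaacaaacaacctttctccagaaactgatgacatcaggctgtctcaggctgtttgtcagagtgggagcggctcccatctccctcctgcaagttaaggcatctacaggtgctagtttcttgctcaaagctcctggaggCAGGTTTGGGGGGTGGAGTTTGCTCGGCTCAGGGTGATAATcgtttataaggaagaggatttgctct
Aligned over their whole length, these promoters were identical at 207 of 373 positions (55.5%). The other pairs among the 4 rule genes had 45.1 to 48.4%, with longest shared runs of 7 to 9 bases. The Scgb2b26 and Scgb2b27 sequences, of 300 bases each, are offset against each other. Their overhanging ends count as unmatched positions, so 55.5% understates the likeness of the part they have in common. Promoters of the nearly silent secretoglobins were not compared, so whether the stretch sets this pair apart is not known. The shared stretch is a description of the sequence and says nothing about which factor binds it.

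Scgb1b27 made up 9.15% of UMIs in KO and 11.5% in WT Mucl2-rich cells. Scgb2b27 made up 3.73% in KO and 6.83% in WT cells, and Scgb2b26, the least abundant, 1.35% in KO and 2.07% in WT cells. All 4 rule genes thus took a smaller share in KO cells, by 1.15-fold for Mucl2, 1.26-fold for Scgb1b27, 1.54-fold for Scgb2b26 and 1.83-fold for Scgb2b27, none beyond 2-fold. Since these genes chose the cells, the differences are given as a description. Tags from the last 500 bases of these transcripts could be told apart: of 451 stretches of 50 bases, 0 were shared with another gene for Mucl2, Scgb1b27 and Scgb2b26, and 13 (2.88%) for Scgb2b27, with Scgb2b12, Scgb2b19 and Scgb2b23-ps.

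The proportions of the 4 rule genes among themselves were more alike between the genotypes than their levels. Mucl2, Scgb1b27, Scgb2b26 and Scgb2b27 made up 72.7, 17.5, 2.58 and 7.16% of rule-gene UMIs in KO Mucl2-rich cells, and 68.1, 17.99, 3.24 and 10.7% in WT cells. UMIs of the Scgb1b subunit exceeded those of both Scgb2b subunits together, 1.80 to 1 in KO cells and 1.29 to 1 in WT cells. Per cell, this ratio had a median of 2.04 in KO and 1.44 in WT cells. Scgb2b27 had 2.77 UMIs for each UMI of Scgb2b26 in KO cells and 3.29 in WT cells.

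The traces of rule genes outside the group did not all have these proportions. In immune barcodes, the order was 72.4, 17.2, 1.73 and 8.67% in the KO library and 74.2, 14.7, 2.44 and 8.69% in the WT library, close to the Mucl2-rich cells. In KO Smgc-rich cells, Scgb2b27 made up 41.7% and Mucl2 26.7% of 993 rule-gene UMIs, and in KO barcodes with at least 100 UMIs of the kallikrein set of the granular ducts (565 barcodes) 45.1% and 41.8% of 4281. The same classes of the WT library had 17.8% Scgb2b27 and 65.4% Mucl2 in Smgc-rich cells, and 12.6% and 72.03% in kallikrein-rich barcodes. Of all UMIs, Scgb2b27 made up 0.273% in KO Smgc-rich cells, against 0.0287% in KO immune barcodes.

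**Figure D2:**
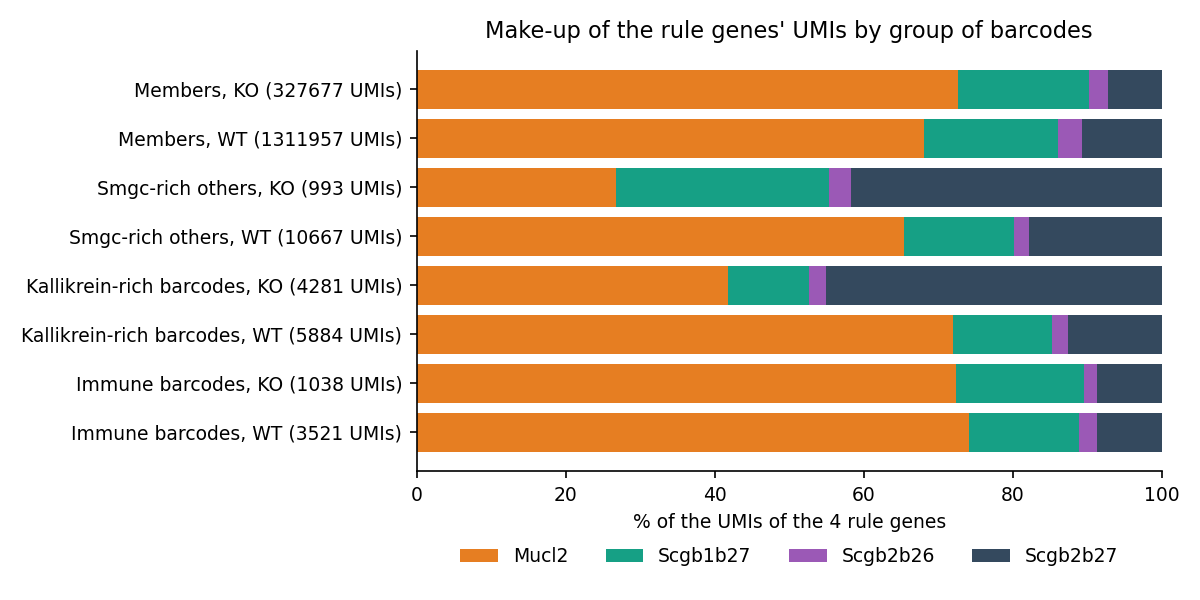
Percent of rule-gene UMIs (x axis) that each of the 4 genes took, for Mucl2-rich cells (members), Smgc-rich cells, kallikrein-rich and immune barcodes, KO above WT in each pair, with the number of rule-gene UMIs in brackets. Scgb2b27, the rightmost segment, is widest in KO Smgc-rich cells (41.7%) and KO kallikrein-rich barcodes (45.1%).

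Beyond the rule genes, 7 other secretory products were followed: Pip, Prol1, Car6, Wfdc12, Mup5, Lpo and 2310057J18Rik (Leg1 by its RefSeq synonym). Together they made up 23.1% of UMIs in KO and 13.6% in WT Mucl2-rich cells. In Smgc-rich cells, the same 7 made up 22.4% in KO and 6.08% in WT, of which Pip alone took 19.99% and 5.72%. With the rule genes and Smgc left out of the totals, the 7 made up 48.3% in KO and 38.1% in WT Mucl2-rich cells, against 25.2% in KO and 7.44% in WT Smgc-rich cells.

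Pip, which encodes a secreted glycoprotein of saliva and tears, was the second most abundant transcript in KO cells. It made up 11.3% of UMIs in KO and 5.34% in WT Mucl2-rich cells, 2.12-fold higher in KO (2.096 to 2.14), with per-cell medians of 9.42 and 4.91% and overlapping ranges (0.0446 to 27.2% in KO, 0.0588 to 14.1% in WT). The ratio shrank when rule genes were left out of the totals, to a log2 difference of 0.67, which no longer passed the 2-fold limit. Pip was higher in KO Smgc-rich cells too, at 19.99% against 5.72% in WT Smgc-rich cells (3.49-fold, 3.45 to 3.54), and lower in KO immune barcodes, at 0.0727% against 0.263%.

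Prol1, also known as Muc10, the mucin of this gland in mice, and Car6, the secreted carbonic anhydrase of saliva, were close between genotypes. Prol1 made up 5.21% of UMIs in KO and 4.53% in WT cells (1.15-fold, 1.13 to 1.16), and Car6 3.15% in KO and 2.87% in WT cells (1.10-fold, 1.08 to 1.11). The direction of both turned under other settings. One KO cell held 8741 of 32731 Prol1 UMIs, and without the cell with most Prol1 UMIs in each library the KO over WT ratio was 0.970 (0.956 to 0.984). Both genes also stood lower in KO when the rule genes were left out of the totals or TMM scaling was used, Prol1 at a ratio of 0.865 with those genes left out. Every one of the 38 KO and 168 WT cells held UMIs of both, and their levels varied widely: Prol1 from 0.138 to 17.6% of a cell's UMIs in KO and from 0.0825 to 28.8% in WT cells. Car6 stood at 0.0106% in KO and 0.0183% in WT Smgc-rich cells and at 0.0112 and 0.0358% in immune barcodes. Prol1 stood at 0.0416% in KO and 0.0878% in WT Smgc-rich cells and at 0.0501 and 0.159% in immune barcodes. Over all other kept barcodes, Prol1 had 7217 UMIs in KO and 4263 in WT, and it reached 12.1% of the UMIs of a KO barcode and 4.03% of those of a WT barcode outside the group.

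Wfdc12, a small protein with a WAP domain as found in protease inhibitors, made up 2.03% of UMIs in KO and 0.438% in WT Mucl2-rich cells, 4.63-fold higher in KO (4.51 to 4.76). It was again higher in KO Smgc-rich cells, at 2.40% against 0.247% (9.71-fold, 9.25 to 10.2). Mup5, a lipocalin of the major urinary protein family, made up 1.14% in KO and 0.185% in WT Mucl2-rich cells, 6.17-fold higher in KO (5.93 to 6.42). One KO cell held 2894 of its 7166 UMIs, and without the cell with most Mup5 UMIs in each library the ratio was 4.35 (4.16 to 4.55). Reads may be shared with relatives, since 131 of 451 stretches near the 3′ end (29.0%) occur in other genes, among them Mup4 and Mup1. Unlike Pip and Wfdc12, Mup5 was nearly absent from Smgc-rich cells, with 7 UMIs in KO and 21 in WT.

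The remaining products were sparse. 2310057J18Rik had 1636 UMIs in KO and 3708 in WT Mucl2-rich cells, 0.260 and 0.181%, and was found in 26 of 38 KO and 124 of 168 WT cells. Lpo, the lactoperoxidase of saliva, had 99 and 499 UMIs, 0.0157 and 0.0243%, in 23 KO and 130 WT cells. In immune barcodes, 0 of 170 in KO and 3.57% of 112 in WT held an Lpo UMI.

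**Figure D3:**
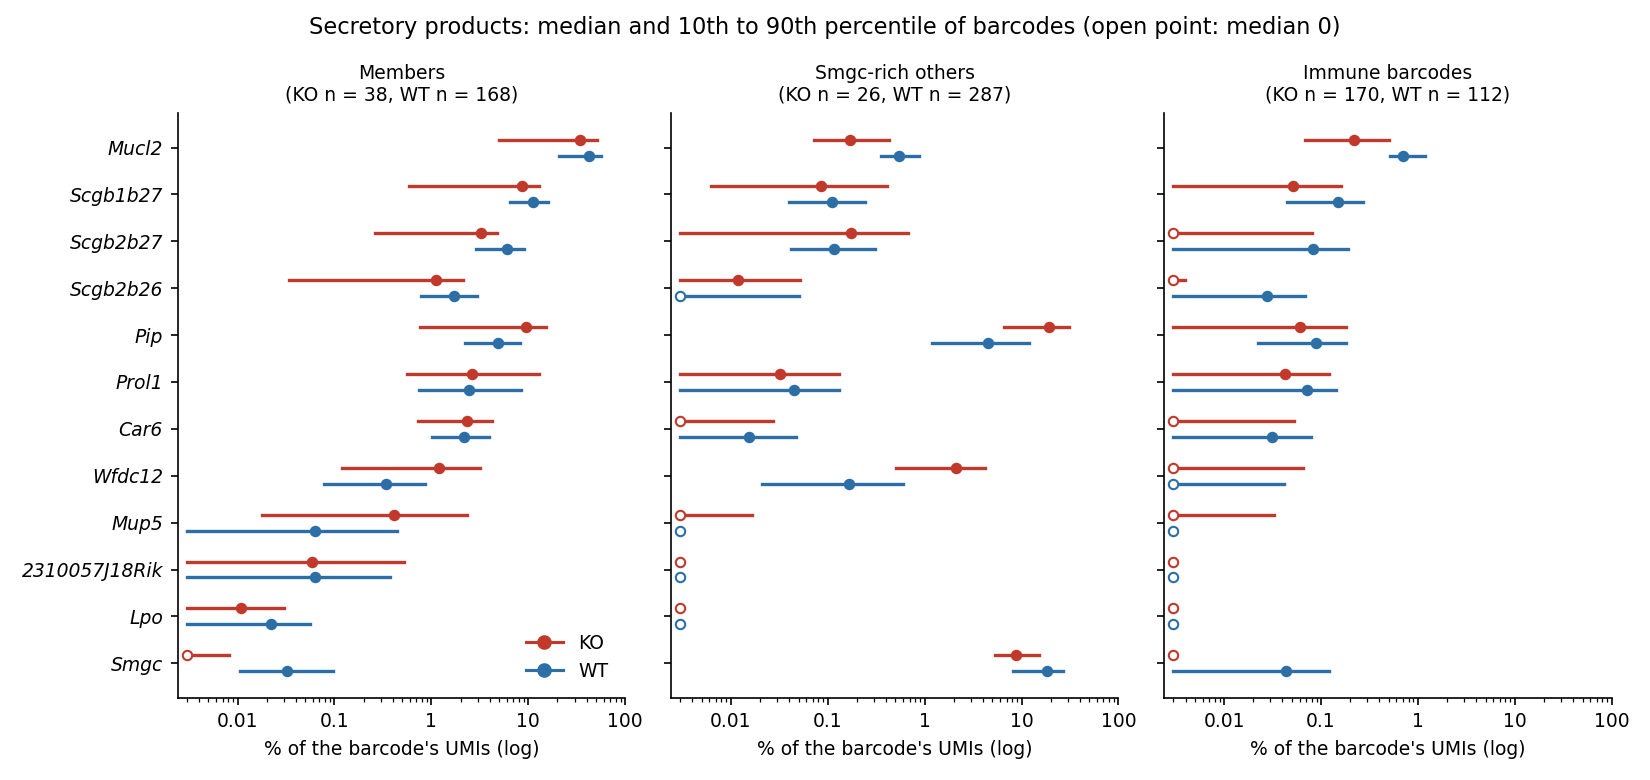
Percent of each barcode's UMIs (x axes, log scale) for 12 secretory products in Mucl2-rich cells (members), Smgc-rich cells and immune barcodes; points are medians over barcodes, lines run from the 10th to the 90th percentile, open points stand at a median of 0, and KO is drawn above WT. Car6, Prol1 and Mup5 separate the left panel from the others, whereas Pip and Wfdc12 are also high in Smgc-rich cells and higher in KO in both panels.

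Within the group, the products did not all move with the rule genes. With rule genes left out of the totals, the rank correlation of Pip with the rule share across cells of a library was 0.84 in KO (38 cells) and 0.58 in WT (168 cells), and that of Car6 was 0.69 and 0.46. For Wfdc12 it was 0.70 in KO and 0.17 in WT cells. Prol1 and Car6 ran together at 0.64 in KO and 0.56 in WT cells. These are descriptions of cells that share a library and differ in depth, and the median depth was higher at high rule shares, as given above. Median Pip was 0.836% in the 13 KO cells with rule shares under 40% and 11.1% in the other 25, while median Car6 was 2.03% and 2.53%.

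The acinar label was checked against markers. All 5 markers named for these cells (Mucl2, Scgb1b27, Scgb2b26, Car6 and Prol1) were present in both libraries, though 3 of them had chosen the cells. Of 17 acinar markers, 10 had UMIs in KO and 15 in WT Mucl2-rich cells, groups with 628812 and 2051323 UMIs. Among those not used by the rule, Aqp5, the water channel of acinar cells, had 146 CPM (UMIs of each group scaled to the same total) in KO and 321 CPM in WT cells, Cldn10, a claudin of secretory junctions, 202 and 228 CPM, and Slc12a2, the basolateral chloride importer, 213 and 196 CPM. Bhlha15, the transcription factor Mist1 of secretory cells, had 22.3 CPM in KO and 58.5 CPM in WT cells. Levels of Aqp5, Cldn10, Slc12a2 and Bhlha15 are given inside the group only, so they do not show whether it stands apart from other cells. Amy1, Prb1 and Bpifa2, products better known from the parotid gland, had 0 UMIs in KO and 2, 1 and 4 in WT cells. The whole acinar set, which includes Smgc and Pip, stood at 197755 CPM in KO and 132660 CPM in WT cells. In Smgc-rich cells it stood at 304932 and 234429 CPM, so the set does not single out Mucl2-rich cells.

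Markers of most other cell types were low. Basal duct markers had 22 UMIs in KO and 169 in WT Mucl2-rich cells (35.0 and 82.4 CPM), with Krt5, Krt14, Krt15, Krt17 and Trp63 at 0 in KO cells. All other kept barcodes had 492 and 1975 CPM of them. Striated or excretory duct markers had 126 UMIs in 26 of 38 KO cells and 731 in 154 of 168 WT cells. That was 200 and 356 CPM, against 3555 and 2537 CPM in all other kept barcodes. Ionocyte markers had 1 and 19 UMIs, myoepithelial markers 12 and 24, endothelial 33 and 136, pan-immune 28 and 162, and macrophage markers 30 and 83. The red cell set was an exception, with 1510 UMIs in 33 of 38 KO cells and 6086 in 166 of 168 WT cells (2401 and 2967 CPM), against 15158 and 24115 CPM in all other kept barcodes. One KO cell held 1324 of the 1510 KO UMIs. The kallikrein set of the granular ducts stood at 2581 CPM in KO and 2616 CPM in WT cells, against 38724 and 25359 CPM in all other kept barcodes. Intercalated duct markers stood at 4857 CPM in KO and 1689 CPM in WT cells, a difference carried by Wfdc18, Krt18 and Krt8 as described below. At least 10 UMIs of another lineage's markers, or 100 of the kallikrein set, were found in 4 of 38 KO and 9 of 168 WT cells, called mixed cells below.

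Trp63, the targeted gene, had 20 UMIs in the kept KO barcodes and 149 in the kept WT barcodes, or 2.91 and 18.8 CPM. In Mucl2-rich cells it had 0 UMIs in KO and 2 in WT cells. For the 0 of 38 KO cells, the share with a UMI may be up to 7.89% by the limit of 3 counts and up to 9.25% by the exact two-sided binomial interval. The 3′ tags check the deletion only if it removed the end of the gene.

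The next comparison asked how Mucl2-rich cells differed between genotypes in genes that did not choose them. In KO cells, transthyretin (Ttr), the stress protein gene Trp53inp1, Mup5, Wfdc12 and Pip were higher, as were the simple-epithelial keratins Krt18 and Krt8 and the metallothioneins Mt1 and Mt2. Smgc, the lipolysis inhibitor G0s2, the potassium channel Kcnn4, which serves fluid secretion, and genes of MHC class II were lower. Calls needed 50 UMIs summed over KO and WT cells and a ratio whose 95% interval lay wholly beyond 2-fold, a rule of size that is not a test. This could be applied to 1637 genes, of which 43 (2.63%) were higher and 18 (1.1%) lower in KO Mucl2-rich cells. The median over all genes was a log2 difference of 0.07. The rule genes took a larger share in WT cells, and leaving them out of the totals moved that median to -0.30 and the split to 21 higher and 43 lower. Leaving out Smgc and mitochondrial genes as well gave -0.36 with 17 higher and 53 lower, and TMM scaling -0.16 with 21 and 34. With cells at a rule share of at least 20% only, 16 genes were higher, and Ccl28, Cxcl2, Hp, Krt8, Mt1, Mt2, Rps28, Sat1, Shroom3 and Wfdc18 no longer passed. Without mixed cells 28 were higher, and Ccl28, Cxcl2, H2-Aa, Mt1, Mt2 and Shroom3 no longer passed.

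Ttr, a carrier of thyroid hormone, had 52 UMIs in KO and 8 in WT Mucl2-rich cells, 21.2-fold higher in KO (10.0 to 51.7), in 17 of 38 KO and 8 of 168 WT cells. Trp53inp1 had 73 and 21 UMIs, 11.3-fold higher (6.90 to 19.4), in 21 KO and 18 WT cells. In immune barcodes Ttr had 0 UMIs in KO and 1 in WT, and Trp53inp1 12 and 10. Cirbp, the cold-inducible RNA-binding protein, had 64 and 32 UMIs (6.52-fold, 4.20 to 10.3), Sat1, which acetylates polyamines, 134 and 91 (4.80-fold, 3.65 to 6.34), and Shroom3, an actin-binding protein of apical junctions, 36 and 14 (8.39-fold, 4.42 to 16.8). In immune barcodes Cirbp and Sat1 stood at 1.03 and 0.71 log2, and Shroom3 had 2 and 0 UMIs.

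Single cells carried part of the other calls. Krt18 had 1018 UMIs in KO and 702 in WT cells, 4.73-fold higher in KO (4.29 to 5.22), but 429 of the KO UMIs were in 1 cell. Without the cell with most of its UMIs in each library the ratio was 2.99 (2.67 to 3.35). Krt8 had 421 and 320 UMIs (4.29-fold, 3.70 to 4.98), with 238 in 1 KO cell, and without those cells it was 2.03-fold higher (1.68 to 2.45) and did not pass. Cxcl2, a neutrophil-attracting chemokine, had 43 and 14 UMIs, 28 of the KO ones in 1 cell, and it too did not pass without it (3.76-fold, 1.67 to 8.58). Cxcl2 was also higher in KO immune barcodes, by 2.55 log2.

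Among lower genes, Smgc had 342 UMIs in KO and 8273 in WT Mucl2-rich cells, 7.42-fold lower in KO (6.65 to 8.29). The 7 WT cells with Smgc at 5% or more held 5560 of the 8273 UMIs, and without them Smgc was 2.50-fold lower in KO (2.23 to 2.80), with 342 and 2713 UMIs. Ccl28, Dcpp1 and Hp no longer passed without those 7 cells. In immune barcodes Smgc had 13 UMIs in KO and 2149 in WT. Smgc UMIs outside its own cells were thus also lower in the KO library, and their part in the result was not tested. G0s2 had 10 UMIs in 5 of 38 KO cells and 361 in 114 of 168 WT cells, 11.1-fold lower in KO (5.95 to 23.3). It was also lower in KO immune barcodes, with 2 against 30 UMIs, a log2 difference of -2.63. Kcnn4 had 54 UMIs in 19 KO cells and 526 in 137 WT cells, 2.99-fold lower in KO (2.25 to 4.03). In immune barcodes Kcnn4 had 13 and 15 UMIs.

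MHC class II genes were low in Mucl2-rich cells of both libraries, and lower in KO cells. Cd74, the invariant chain, had 4 UMIs in KO and 143 in WT cells, H2-Ab1 had 1 and 87, and H2-Aa had 0 and 72. In WT cells the 3 genes thus stood at 69.7, 42.4 and 35.1 CPM. The WT cell with most UMIs of each gene held 49, 21 and 17 of them, and all 3 genes still passed without it. Against a floor of 3 counts over the group, H2-Aa was at least 7.36-fold lower in KO cells, and its two-sided 95% interval began at 5.83-fold. In immune barcodes the 3 genes stood at -0.90, -1.78 and -1.31 log2, and mixed cells made up 4 of 38 KO (10.5%) and 9 of 168 WT Mucl2-rich cells (5.36%). Without mixed cells H2-Aa no longer passed. Whether antigen-presenting cells or free RNA had a part in this was not tested.

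Other lower genes rested on few molecules in KO cells. Igfbp7, a secreted binder of growth factors, had 1 UMI in KO and 105 in WT cells, Gmppb, which makes GDP-mannose for glycosylation, 1 and 71, Ccnd1, cyclin D1, 0 and 65, and Hp, haptoglobin, 0 and 53. Against the same floor, Ccnd1 was at least 6.64-fold and Hp at least 5.42-fold lower, with two-sided intervals that began at 5.25-fold and 4.25-fold. In immune barcodes Igfbp7 had 11 UMIs in KO and 48 in WT, Ccnd1 1 and 31, Hp 17 and 120, and Gmppb 2 and 5. Dcpp1, a secreted protein of demilune cells, had 0 and 75 UMIs, all 75 in 1 WT cell. Further calls, named after their values were seen, were Oit1 with 46 UMIs in KO and 446 in WT cells (2.97-fold lower, 2.191 to 4.12), St3gal4, a sialyltransferase, with 24 and 248 (3.17-fold, 2.08 to 5.04), and the interferon-induced Ifi27l2a with 40 and 502 (3.85-fold, 2.79 to 5.45). Ifi27l2a was lower in KO immune barcodes as well, at -3.02 log2.

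**Figure D4:**
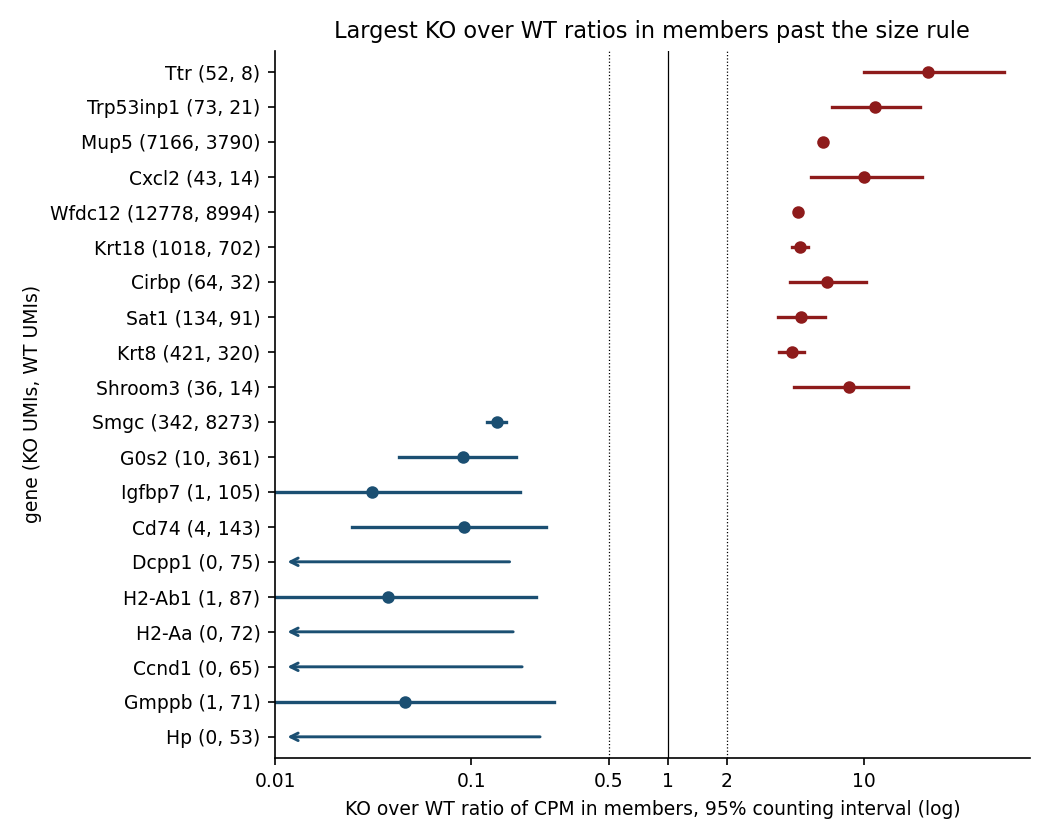
KO over WT ratio of CPM in Mucl2-rich cells (x axis, log scale) with 95% counting intervals for the 10 highest and 10 lowest named genes past the size rule, ordered by log2 difference; UMIs in KO and WT cells stand in brackets, dotted lines mark 2-fold, arrows start at the upper bound for genes with 0 KO UMIs, and intervals reaching under 0.01 are cut. Mup5 and Wfdc12 rest on 7166 and 12778 KO UMIs, whereas most others rest on fewer than 150 in KO cells.

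In the lists of the secretory machinery, no gene passed the size rule between genotypes. Of 17 measured genes of protein folding and the unfolded protein response, 0 passed the size rule in either direction (median log2 -0.24), with P4hb, a disulphide isomerase, at 296 CPM in KO and 292 CPM in WT cells, and Hspa5, the chaperone BiP, at 105 and 137 CPM. Of 25 genes of translocation and N-glycosylation, 0 passed (median -0.35), with Sec61b, a translocon subunit, at 253 and 325 CPM. Of 4 exocytosis genes (median -0.06) and 14 gland transcription factors (median 0.13), 0 passed: Xbp1 stood at 126 and 106 CPM and Etv1 at 92.2 and 96.0 CPM. For 2 measured genes of O-glycosylation the median was -0.64, none called. Such counts stand beside 2.63% higher and 1.1% lower over all genes, so that 0 of 17 or 0 of 25 is near the background. Summed over a whole list, the KO over WT ratio was 0.877 for folding (0.811 to 0.948) and 0.815 for translocation (0.767 to 0.866). It was 0.599 for O-glycosylation (0.444 to 0.794), 1.33 for exocytosis (1.16 to 1.54) and 1.12 for transcription factors (1.01 to 1.23).

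In fluid secretion, Kcnn4 was the 1 of 8 measured genes that was lower (list median -0.08). Aqp5 had 146 CPM in KO and 321 CPM in WT cells, 2.20-fold lower in KO (1.76 to 2.76), an interval that reaches under 2. It passed as lower when the rule genes were left out of the totals (2.92-fold, 2.34 to 3.67) and with TMM scaling (2.68-fold, 2.15 to 3.37). Atp1b1, a subunit of the sodium pump, had 286 and 217 CPM. Of 7 genes of innate defence, Ccl28, a mucosal chemokine, Wfdc18 and Cxcl2 were higher and Hp lower (median 0.06). Wfdc18 had 2495 CPM in KO and 1140 CPM in WT cells (2.189-fold, 2.05 to 2.33), and Ccl28 60.4 and 18.5 CPM (3.26-fold, 2.03 to 5.25), both calls that ended when rule genes were left out of the totals. Wfdc18 in KO immune barcodes was lower, at -4.53 log2.

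Stress-related lists had medians above the 0.07 of all genes. Of 7 genes induced by glucocorticoids or nutrient stress, 3 were higher in KO (Mt1, Mt2 and Trp53inp1) and 0 lower, with a median of 1.08. Mt1, a metallothionein that binds zinc and copper, had 450 CPM in KO and 165 CPM in WT cells (2.72-fold, 2.32 to 3.20), and Mt2 156 and 39.97 CPM (3.90-fold, 2.88 to 5.29). Both were higher in KO immune barcodes too, by 1.59 and 2.34 log2. Mt1 also did not pass with rule genes left out of the totals, or without the cell with most of its UMIs in each library. Of 20 stress and immediate early genes 0 passed, with a median of 0.51 in Mucl2-rich cells and 0.36 in immune barcodes. Hspa1a, an inducible heat shock protein, had 684 CPM in KO and 407 CPM in WT cells (1.68-fold, 1.49 to 1.89).

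Most remaining lists were flat or thin. Of 83 ribosomal protein genes, Rps28 was higher and 0 lower (median 0.30). Rps28 had 744 CPM in KO and 306 CPM in WT cells (2.43-fold, 2.15 to 2.74), and 17.5% of its 3′ stretches occur in other genes; its call ended when rule genes were left out of the totals. Of 75 nuclear genes of the respiratory chain 0 passed (median -0.24), as did 0 of 6 genes of MHC class I and interferon response (median -0.05). Of 5 cell cycle genes Ccnd1 was lower (median -0.50), and of 2 measured p63-associated basal genes 0 passed (median 0.57), Perp with 116 CPM in KO and 48.7 CPM in WT cells. The saliva proteins were not: Mup5 and Pip were higher and Smgc and Dcpp1 lower among 9 measured (median 0.13). Over all genes, 2.63% were higher and 1.1% lower. All 75 Dcpp1 UMIs were in 1 WT cell.

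Last, Mucl2-rich cells were set against Smgc-rich cells of the same library, another kind of secretory cell in this gland. Car6, Prol1, Mup5, 2310057J18Rik, Lpo, Kcnn4, Pigr and Agt were higher in Mucl2-rich cells in both libraries, 8 of 666 genes with enough UMIs (1.2%), with the rule genes and Smgc left out because they defined the groups. Lower in both were 318 (47.7%), with medians of -1.50 log2 in KO and -1.75 in WT over all genes. Of the totals behind these ratios, rule genes made up 52.1% in KO and 64.0% in WT Mucl2-rich cells. With the rule genes and Smgc left out of the totals, a choice made after seeing the data, the medians were -0.67 and -0.68, and 9 genes were higher and 60 lower. Folds below use those reduced totals. They still hold the 7 secretory products, at 48.3% in KO and 38.1% in WT Mucl2-rich cells, against 25.2% and 7.44% in Smgc-rich cells. A larger share of these products lowers the ratios of all other genes, and its part in the lower calls was not tested. The comparison describes groups that were chosen by abundant genes of the same cells, and it is no test.

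Car6 was 554-fold higher in Mucl2-rich cells of the KO library (341 to 970; 19784 against 16 UMIs) and 359-fold in those of the WT library (315 to 411; 58930 against 229). Prol1 was 233-fold higher in KO (182 to 303) and 118-fold in WT (111 to 126), and Mup5 459-fold in KO (223 to 1142) and 252-fold in WT (164 to 407). 2310057J18Rik had 1636 UMIs in Mucl2-rich against 0 in Smgc-rich cells of the KO library, and 3708 against 17 in the WT library. Of secretory genes at lower levels, Lpo had 99 against 0 UMIs in KO and 499 against 8 in WT. Pigr, which carries IgA into saliva, had 65 against 0 and 224 against 2, and Agt, angiotensinogen, 54 against 0 and 305 against 9. Kcnn4, the channel that was lower in KO Mucl2-rich cells, had 54 against 0 UMIs in KO and 526 against 7 in WT, so it stood out in Mucl2-rich cells of both genotypes. Etv1, an ETS transcription factor, joined the higher genes with the reduced totals, at 8.67-fold in KO (2.82 to 43.2) and 10.6-fold in WT (7.001 to 16.6).

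Of the 60 lower genes, Fgg, the fibrinogen gamma chain, had 9 UMIs in Mucl2-rich and 268 in Smgc-rich cells of the KO library (66.4-fold lower, 34.5 to 147) and 4 and 232 in the WT library (41.6-fold, 16.02 to 154). Hp had 0 and 71 UMIs in KO, and 53 and 384 in WT (5.19-fold lower, 3.89 to 7.06). Heat shock genes were among them, with Hspb1 5.82-fold lower in KO (4.96 to 6.84) and 7.72-fold in WT (6.99 to 8.54), and Hspa1a 3.19-fold in KO (2.82 to 3.62) and 4.41-fold in WT (4.10 to 4.75). Btg1, an antiproliferative gene, Bag3, a partner of heat shock proteins, Sdc4, a cell surface proteoglycan, and Clu, a secreted chaperone, were lower as well. Of 82 ribosomal protein genes 26 were lower and 0 higher (medians -1.15 in KO and -1.18 in WT), against 60 of 666 over all genes. Of 8 folding genes, 14 of translocation and 61 of the respiratory chain, 0 passed either way.

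**Figure D5:**
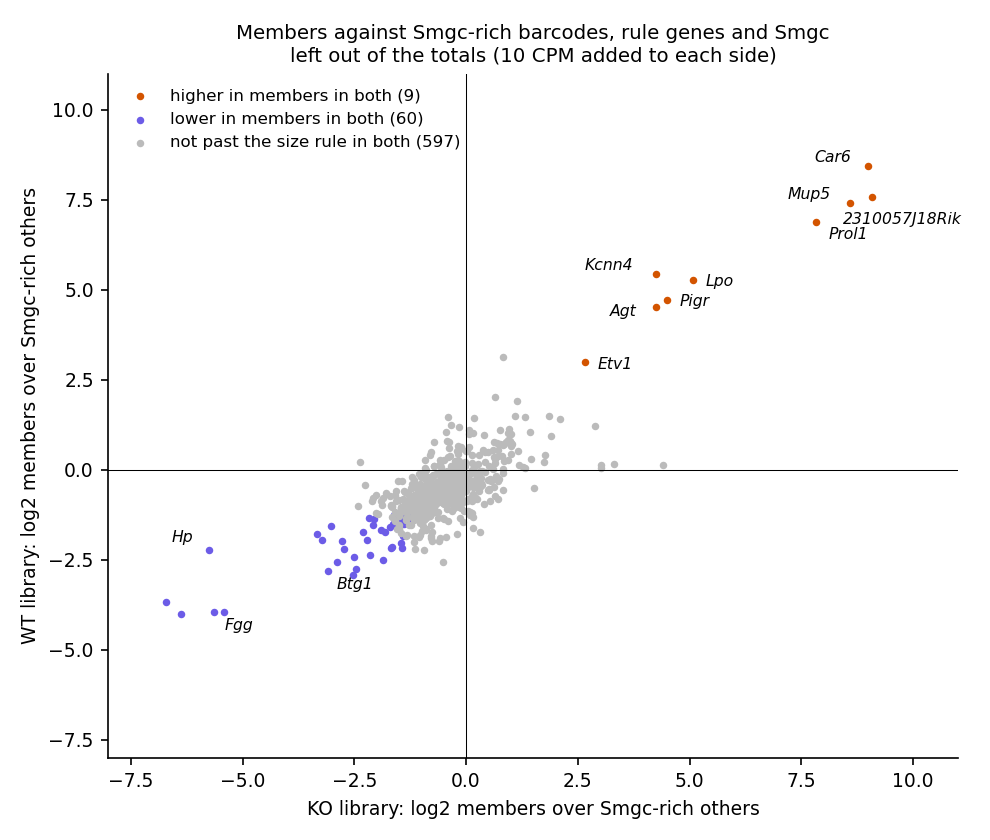
Log2 ratio of Mucl2-rich over Smgc-rich cells in the KO library (x axis) and in the WT library (y axis) for 666 genes, with rule genes and Smgc left out of the totals and 10 CPM added to each side; orange points passed the size rule as higher in both libraries, purple points as lower in both. The 9 orange genes lie in the upper right, and Fgg and Hp are among the lowest.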

How the data were processed

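Single cells of 1 p63 KO and 1 p63 WT library were measured, and the deposited values are raw UMI counts, 1 row per gene and 1 column per barcode. The submitters' processing notes name the build mm10, Seurat 3.1.2, Cell Ranger 2.1.0 and bcl2fastq 2.19.1, with no roles. The sources used here do not say how barcodes were picked. The tables held 4726 KO barcodes with 11828669 UMIs and 1970 WT barcodes with 8811082 UMIs, over 27998 genes. Counts were summed per library and divided by the group's total (CPM). Shares have exact Clopper-Pearson intervals, ratios exact conditional Poisson intervals, and log2 values 10 CPM added to both sides. The script was tested on simulated data. Python 3.11.15, scipy 1.17.1 and scanpy 1.11.5 were used.

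Named genes were Trp63, the rule genes and markers, the 10 highest and 10 lowest past the size rule in each comparison, and, of each list, those past the size rule and the 3 most abundant. Mitochondrial, ribosomal, haemoglobin, immunoglobulin and sex-linked genes were left out of the ranking. The cells, the 16 marker sets and the 17 gene lists were chosen with earlier results of these data known. Names of 27722 gene rows and their positions came from GENCODE, and promoters from RefSeq, both on GRCm38.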

Additional observations from a re-analysis of the deposited data

Results flagged for a closer look

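Hbb-bs, a beta globin of red cells, differed in direction between the libraries when Mucl2-rich cells were set against Smgc-rich cells. Its log2 ratio was 2.12 in the KO library, with 727 against 39 UMIs, and -1.14 in the WT library, with 3209 against 4325 UMIs. The difference between the libraries was not tested. One KO Mucl2-rich cell held 630 of the 727 UMIs, and without it the KO ratio was -0.66.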

How the results depend on the processing

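No paired analysis was possible because there was only 1 library per genotype. Of 27 named genes called between genotypes, 0 changed sign under the alternatives run, though Dcpp1 fell to a log2 difference of 0. Of 44 named genes that were not called, 26 changed sign under at least 1, among them Prol1 and Car6. Called genes had been chosen for ratios beyond 2-fold in the same cells, so this contrast follows largely from the choice. The KO share of Mucl2-rich cells was 0.889% without a filter on barcodes and 2.79% above the depth of the shallowest WT barcode. Genes higher in KO numbered 16 at a rule threshold of 20%, 106 with a minimum of 10 UMIs, 129 with no minimum and 28 without mixed cells. Thinning each barcode to 1000 UMIs gave 19 higher and 2 lower in KO, and 4 higher and 29 lower against Smgc-rich cells. Leaving the 4 rule genes out of the totals gave 21 higher and 43 lower in KO, leaving out Smgc and mitochondrial genes as well 17 and 53, and TMM scaling 21 and 34. Against Smgc-rich cells, 531 genes were lower with a minimum of 10 UMIs, 582 with none, and 60 with the rule genes and Smgc left out of the totals. Of the 27 called genes, 10 no longer passed at a threshold of 20%, 20 after thinning, 5 under each other scaling, 3 without cells at 5% Smgc or more, and 6 without the cell with most of the gene's UMIs. With every cell given the same weight, 13 of the 27 moved beyond their counting interval. Aqp5 came to pass under each other scaling, Perp with a stricter filter on barcodes and Hspa1a after thinning. The cause was not tested. The depth limit, the mixed cells, the reduced totals with Smgc left out, the equal weights and the removal of single cells were chosen after seeing the data.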
